A study of Magallana angulata with 8 samples.

Results

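The heat shock 70 kDa protein (HSP70) family of the Fujian oyster *Crassostrea angulata* was taken as every gene whose protein annotation contained "heat shock 70 kDa", "heat shock cognate", "heat shock protein 70" or "Hsp70". The rule used the annotation text alone and found 140 of the 25647 genes in the table. Of these, 70 were named heat shock 70 kDa protein 12A and 64 were named heat shock 70 kDa protein 12B. The remaining 6 were 3 genes named heat shock protein 70 B2, 1 gene each named heat shock 70 kDa protein 13 and 14, and 1 gene named Hsp70-binding protein 1, which binds HSP70 but is not an HSP70 itself. All 140 annotations referred to proteins of *Crassostrea gigas*, the close relative whose genome was used for mapping.

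HSP70 proteins are ATP-driven chaperones that hold unfolded stretches of other proteins and release them for refolding, transport or degradation. J-domain (DnaJ) proteins bring clients and start ATP hydrolysis, and nucleotide exchange factors reset the cycle. The 12A and 12B proteins are distant relatives with an atypical ATPase domain, best known from mammals, where 12B is linked to blood vessel growth, and the genomes of oysters carry many copies of such genes. Classical inducible HSP70 genes are switched on by heat shock factor when heat, metals such as copper (Cu) or other stress unfolds proteins.

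Digital gene expression libraries were made from gill, the ciliated organ of respiration and feeding, and from mantle, the tissue that lines and secretes the shell, of oysters 9 months old that had low or high body Cu. Set 1 oysters (libraries G1-L and G1-H from gill, M1-L and M1-H from mantle) came straight from a farm, and set 2 oysters (G2-L, G2-H, M2-L and M2-H) had spent 7 days of acclimation and then 30 days of exposure in tanks at 30 µg/L Cu. L and H mark pools of the 6 oysters with the lowest and the highest Cu in each set, so each of the 8 groups was 1 library of pooled RNA with no replicate. The low and the high library of a set and tissue form a pair (G1, G2, M1 or M2), and where 4 values follow each other for a tissue they stand in the order set 1 low, set 1 high, set 2 low and set 2 high. Exposure and aquarium keeping cannot be told apart, because no tank without added Cu was among the 8 libraries. Each main comparison therefore set 4 libraries against 4, with the spread taken between libraries of different tissue, set or Cu class. The gill and mantle pools of a set and Cu class may hold the same oysters. The main fits treated all 8 libraries as independent. In the set and Cu comparisons the gill and mantle libraries may therefore not be separate replicates.

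The libraries held 2015375 to 2589524 reads counted on genes and detected 20960 to 21508 genes. Values were RPKM, the number of reads scaled to gene length and to library size, so that levels of different genes can be compared per length. Mantle library M2-L stood apart, with a median log2(RPKM + 0.1) of 2.84 over the genes tested against 3.25 to 3.44 in the other 7 libraries. Ciliary genes separated the tissues as labelled, and shell genes did so in set 2. The summed RPKM of 45 ciliary genes was 3088 to 4472 in gill and 992 to 1290 in mantle, and 28 of the 39 tested were called lower in mantle. Of 34 tested shell matrix and shell enzyme genes, 12 were called higher in mantle and 7 lower. The summed RPKM of the 60 genes on that list was 673 to 839 in gill, 716 and 789 in the set 1 mantle libraries, within the gill range, and 1333 and 2226 in the set 2 mantle libraries. The summed level of 23 muscle genes was 649 to 1251 in gill and 1949 to 4200 in mantle. Of the 22 muscle genes tested, 5 were called higher in mantle and 2 lower.

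All 140 members had at least 1 read, and 108 were detected in all 8 libraries. The mean level over the 8 libraries was at least 1 RPKM for 122 members, which were tested, and at least 10 RPKM for 53. The 18 members below 1 RPKM were 10 named 12A and 8 named 12B, with 1 to 27 reads each over all libraries, and they cannot carry a comparison at this depth. The median mean level was 7.31 RPKM among the 12A genes and 7.51 RPKM among the 12B genes, against 6.75 RPKM over all genes with reads. The level was spread over many genes, since the 5 highest of the 134 named 12A or 12B made up 21.0% of their summed mean RPKM.

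**Figure D1:**
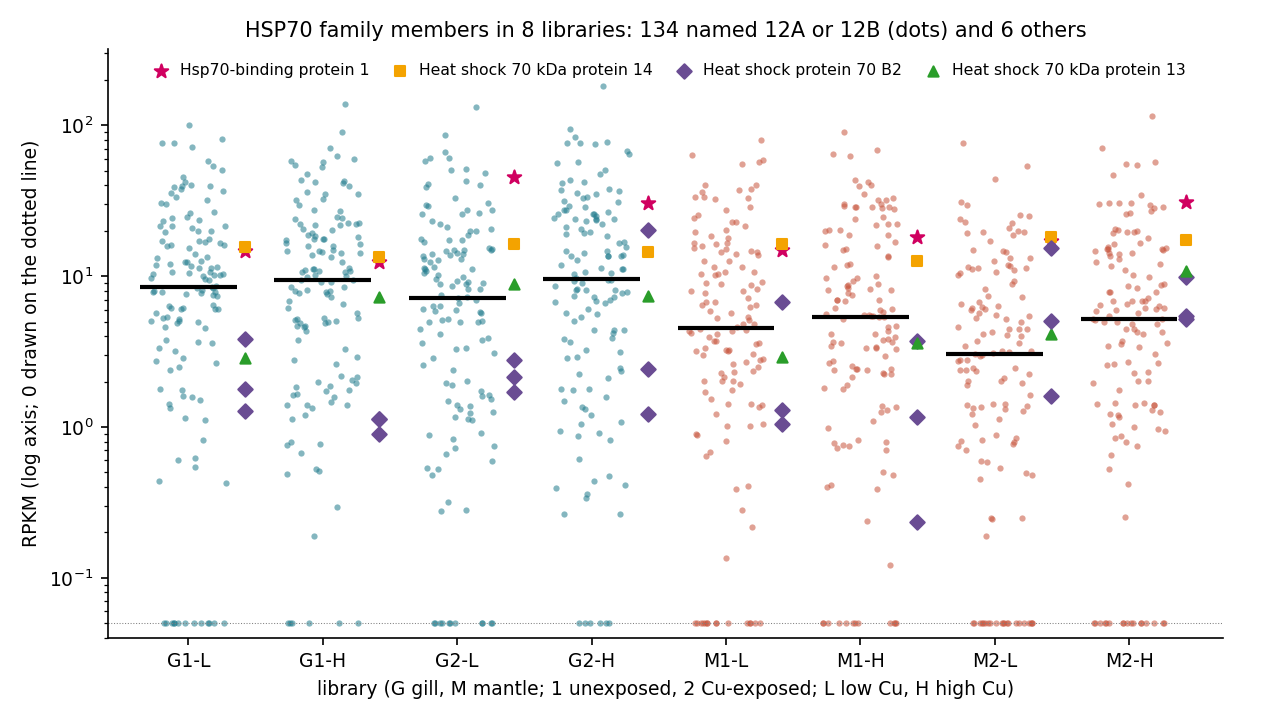
RPKM on a log axis of the 134 genes named 12A or 12B (dots, gill in blue and mantle in red, black bar the median) and of the 6 other members (larger symbols) in each of the 8 libraries. The medians of the 12A and 12B genes lie between 7.22 and 9.62 RPKM in the gill libraries and between 3.03 and 5.39 RPKM in the mantle libraries.

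Gill held more 12A and 12B transcript than mantle. The summed RPKM of the 134 genes was 1998, 2105, 1804 and 2484 in the gill libraries. In the mantle libraries it was 1424, 1522, 928 and 1413. Every gill library therefore lay above every mantle library, with a gill mean of 2098 ± 286 (SD, n = 4) and a mantle mean of 1322 ± 267 (SD, n = 4). The ratio of the means was 1.59, and 1.44 without M2-L. Both names shared the pattern, at a gill to mantle ratio of 1.56 for 12A and 1.61 for 12B. The 6 other members summed to 40.1, 36.3, 77.7 and 76.4 RPKM in the gill libraries and to 43.2, 39.7, 61.4 and 79.8 RPKM in the mantle libraries, a ratio of 1.03. In pooled tissue, fewer cells of a type and less RNA per cell cannot be told apart.

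Gene by gene, the tissue comparison was fitted with limma on log2(RPKM + 0.1), with tissue, set and Cu class as terms and Benjamini-Hochberg adjustment over the 20123 genes tested. At an adjusted p under 0.05, 15 members were called lower in mantle, 7 named 12A and 8 named 12B, and 0 were called higher. This was 15 of 122 members tested, where 9.77% of all genes tested were called lower in mantle and 5.92% higher. The count called lower is near that share and is not read by itself as a result about the members. At an unadjusted p under 0.05, 51 members were lower in mantle and 0 higher, where 18.4% of all genes tested were lower and 10.9% higher. The median log2 difference, mantle minus gill, was -0.80 over the 116 tested 12A and 12B genes (-0.81 for 12A, -0.79 for 12B), against -0.21 over all genes tested. With each library centred on its own median it was -0.59. Of the 116, 110 had a difference below 0, compared with 61.4% of all genes tested. Leaving out 1 library lowered the count of calls to 5 without G1-L, G2-H or M2-H, 7 without M1-H and 9 without G1-H. The share of all genes called in those fits is not given, and the 9.77% is not their background. With no filter on level, 123 of the 134 were below 0, against 58.4% of all genes with reads, and the median was again -0.80. The 6 other members had a median of -0.05, with 3 above and 3 below 0, and none was called.

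**Figure D2:**
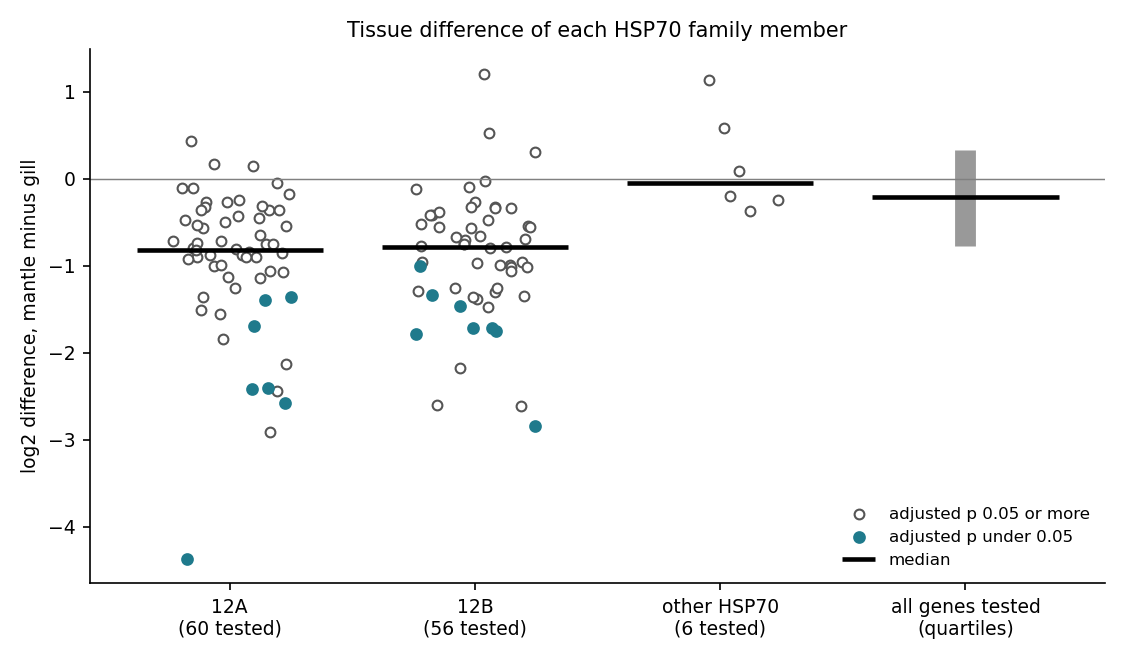
Log2 difference between mantle and gill for each tested member by name, with filled points for an adjusted p under 0.05, black bars for medians and, on the right, the quartiles and median of all genes tested. Nearly all 12A and 12B points lie below 0, with medians of -0.81 and -0.79, while the 6 other members scatter around 0.

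The separation of the libraries was also counted. For 32 of the 116 12A and 12B genes all 4 gill libraries lay above all 4 mantle libraries, and for 0 the reverse held, where 12.6% of all genes tested showed the first pattern and 6.99% the second. Without M2-L the first count was 32 of 116, against 14% of all genes tested. The difference was at least 2-fold lower in mantle for 42 of the 116 genes, against 19.3% of all genes tested, and at least 2-fold higher for 1, OYG_10014217_10038378 (12B), against 12.1%. The difference of that gene turned to -0.38 without G1-H and to -0.22 without M1-L. The ciliary marker genes moved with these genes, with a median log2 difference of -1.72 between mantle and gill, and their part in the 12A and 12B difference was not tested.

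None of the 5 most abundant 12A and 12B genes passed the test between the tissues. OYG_10013525_10027200 (12A), the member with the most transcript, had 100.1, 139, 133 and 184 RPKM in gill and 79.8, 90.6, 44.3 and 115 RPKM in mantle. Only M2-H, the highest mantle library, overlapped the gill range, and the log2 difference was -0.80 (SE 0.25, limma adjusted p = 0.067). OYG_10024293_10001325 (12B) was close to even, with 81.3, 90.7, 87.0 and 84.4 RPKM in gill and 59.1, 68.5, 76.3 and 70.3 RPKM in mantle. Its 4 mantle libraries all lay below its 4 gill libraries, by a log2 difference of -0.33 (SE 0.17, limma adjusted p = 0.249).

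OYG_10012117_10026250 (12A) was the steadiest of the 5, at 77.0, 70.9, 60.7 and 78.1 RPKM in gill and 63.6, 64.5, 54.1 and 55.7 RPKM in mantle. Its highest library was 1.44 times its lowest. OYG_10005614_10029190 (12B) had 50.3, 59.9, 60.7 and 95.4 RPKM in gill and 37.7, 39.8, 25.1 and 57.1 RPKM in mantle, with G2-H high in gill and M2-L low in mantle. OYG_10005917_10023915 (12B, a short gene model with a coding length of 591 bases) stood at 76.8, 63.2, 66.7 and 56.8 RPKM in gill and at 57.1 and 63.1 RPKM in the set 1 mantle libraries, but at 12.5 and 25.8 RPKM in the set 2 mantle libraries M2-L and M2-H. Its set difference over both tissues was -0.96 (SE 0.37, limma adjusted p = 0.339), which does not test the drop in mantle alone. For the set difference within mantle limma called 0 of all genes tested. The smallest limma adjusted p of any 12B gene there was 0.444.

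Of the 15 genes called, 4 were called lower in mantle in every alternative fit, and they were picked out for that after their values were seen. OYG_10003806_10029693 (12A) had 6.07, 9.98, 21.3 and 24.4 RPKM in gill and 0.805, 2.64, 2.36 and 6.47 RPKM in mantle. In each of the 4 pools gill was several times higher than mantle, although the M2-H value reached above G1-L, and the log2 difference was -2.42 (SE 0.36, limma adjusted p = 0.00339). OYG_10003807_10038379 (12A), whose identifier carries the next number, had 19.98, 10.98, 12.5 and 20.6 RPKM in gill and 3.95, 2.53, 2.73 and 1.41 RPKM in mantle, a 5.98-fold difference with no overlap (limma adjusted p = 0.00372). OYG_10001646_10017293 (12A) had 12.7, 8.52, 9.30 and 9.04 RPKM in gill and 3.03, 2.26, 1.33 and 1.05 RPKM in mantle, a 5.28-fold difference (limma adjusted p = 0.0045). OYG_10024296_10013602 (12B) had 15.4, 14.3, 13.8 and 31.1 RPKM in gill and 4.86, 6.14, 4.01 and 5.93 RPKM in mantle, a 3.36-fold difference (limma adjusted p = 0.0078). In the last 3 genes the lowest gill library was well above the highest mantle library.

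**Figure D3:**
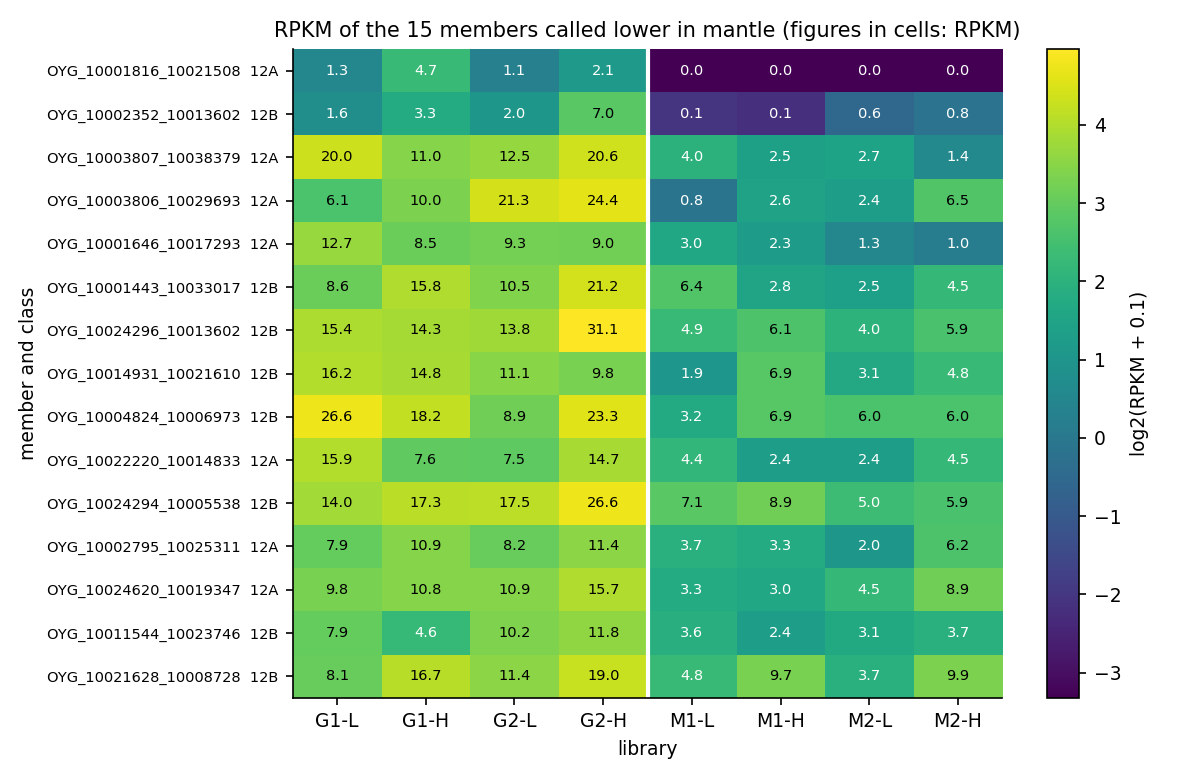
RPKM of the 15 members called lower in mantle, written in each cell, with colour giving log2(RPKM + 0.1) and a white line between the gill and mantle libraries. In 13 of the 15 every gill value exceeds every mantle value, the exceptions being OYG_10003806_10029693 and OYG_10021628_10008728.

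The 3 largest fitted tissue differences belonged to genes with 8, 138 and 69 reads over the 8 libraries. OYG_10001816_10021508 (12A, coding length 366 bases) had 1, 4, 1 and 2 reads in the gill libraries and 0 in the mantle libraries, or 1.33, 4.69, 1.11 and 2.11 RPKM against 0. Taking 3 reads over the 4 mantle libraries as the limit that a count of 0 allows, it was at least 2.54-fold lower in mantle. The gene passed the filter on level through gill alone, and its call (limma adjusted p = 0.031) held in 9 of 18 alternative fits, among them 2 of the 8 that left out a library, so this call is weak. OYG_10002352_10013602 (12B) had 1.61, 3.30, 2.01 and 7.0 RPKM in gill and 0.136, 0.122, 0.599 and 0.793 RPKM in mantle, a 7.18-fold difference (limma adjusted p = 0.032) that was called in 11 of the 18 alternative fits. This gene too passed the filter on level through gill alone, with each mantle library below 1 RPKM. OYG_10022517_10034122 (12A, coding length 534 bases) had 23.8, 11.2, 3.80 and 9.40 RPKM in gill and 2.79, 4.16, 2.45 and 0 RPKM in mantle. The groups overlapped and its difference of -2.91 (SE 0.91) did not pass the test (limma adjusted p = 0.068).

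Only 6 of the 116 tested 12A and 12B genes had a tissue difference above 0, and none passed the test. The highest was OYG_10014217_10038378 (12B), with 0, 0, 3.63 and 6.90 RPKM in gill and 5.91, 9.25, 0 and 1.23 RPKM in mantle. The values rest on 21 reads and were high in pairs G2 and M1 and low in pairs G1 and M2, and the difference was 1.21 (SE 1.93, limma adjusted p = 0.724), below 0 without G1-H (-0.38) or M1-L (-0.22). Among the other members, the highest were a pair of the heat shock protein 70 B2 genes, OYG_10003417_10031424 with 1.13 (SE 0.77, limma adjusted p = 0.371) and OYG_10010646_10017224 with 0.58 (SE 0.50, limma adjusted p = 0.485).

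The second comparison set the Cu-exposed set 2 against set 1. No member was called in it by limma at an adjusted p under 0.05, and over all genes tested 0.00497% were. At an unadjusted p under 0.05, 4 members were higher in set 2 and 5 lower, where 5.51% of all genes tested were higher and 7.24% lower. The 6 members not named 12A or 12B all had a log2 difference above 0, set 2 minus set 1, with a median of 1.10, while the median was -0.24 over the 116 tested 12A and 12B genes and -0.07 over all genes tested. The value of the 116 was -0.15 after centring each library on its median, -0.14 without G1-L, -0.15 without G2-L or M1-L and -0.12 without M2-L. Summed over the 6, the level was 39.8 RPKM in set 1 and 73.8 RPKM in set 2, a ratio of 1.85, and over the 134 it was 1762 and 1658 RPKM, a ratio of 0.941. Of the 116, 80 were below 0 against 55.1% of all genes tested.

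Hsp70-binding protein 1 (OYG_10012734_10007726), a nucleotide exchange factor that helps HSP70 release its nucleotide, had the highest level of the 6. In gill it had 14.6 and 12.4 RPKM in set 1 and 45.7 and 30.7 RPKM in set 2. In mantle it had 14.8 and 18.3 RPKM in set 1 and 17.1 and 31.1 RPKM in set 2. Only M2-L fell within the set 1 range, and the log2 difference was 0.97 (SE 0.32, limma adjusted p = 0.278).

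The heat shock protein 70 B2 genes are named after an inducible cytosolic HSP70 of mosquitoes. OYG_10010646_10017224 and OYG_10010647_10017224 were low in all libraries, while OYG_10003417_10031424 reached 20.3 RPKM in G2-H and 15.3 RPKM in M2-L. OYG_10010646_10017224 had 1.28 and 0.901 RPKM in the gill and 1.30 and 1.17 RPKM in the mantle libraries of set 1, and 2.77, 2.43, 5.03 and 5.41 RPKM in the same libraries of set 2. All set 2 libraries lay above all set 1 libraries, a pattern seen in 1.65% of all genes tested and in no other member. The values rest on 91 reads in all, and the log2 difference of 1.60 (SE 0.50) did not pass the test (limma adjusted p = 0.256). OYG_10003417_10031424 had 3.84, 1.13, 6.77 and 3.73 RPKM in set 1 and 1.71, 20.3, 15.3 and 9.96 RPKM in set 2, so that G2-L was low and the other set 2 libraries were the highest of the 8. Its difference was 1.37 (SE 0.77, limma adjusted p = 0.497), but 0.50 without G2-H, 0.91 without G1-H and 2.2 without G2-L. OYG_10010647_10017224 had 1.79, 1.13, 1.04 and 0.233 RPKM in set 1 and 2.13, 1.22, 1.60 and 5.19 RPKM in set 2, with overlap. Its difference was 1.23 (SE 0.81, limma adjusted p = 0.569), but 0.61 without M1-H and 0.46 without M2-H.

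Heat shock 70 kDa protein 13 (OYG_10027222_10022986), whose mammalian counterpart keeps the ATPase core but lacks the usual peptide-binding part, had 2.87, 7.25, 2.91 and 3.59 RPKM in set 1 and 8.95, 7.37, 4.16 and 10.9 RPKM in set 2. The sets overlapped through G1-H and M2-L, and the difference was 0.93 (SE 0.40, limma adjusted p = 0.385). Heat shock 70 kDa protein 14 (OYG_10023367_10039423), which in mammals joins a J-domain partner at the ribosome, was the steadiest of the 6. It had 15.7, 13.5, 16.3 and 12.6 RPKM in set 1 and 16.4, 14.4, 18.2 and 17.3 RPKM in set 2, and its difference was 0.19 (SE 0.22, limma adjusted p = 0.76). Leaving out any 1 library kept the difference of each of the 6 above 0, and the smallest limma adjusted p of those fits was 0.1096, for Hsp70-binding protein 1 without M2-L.

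**Figure D4:**
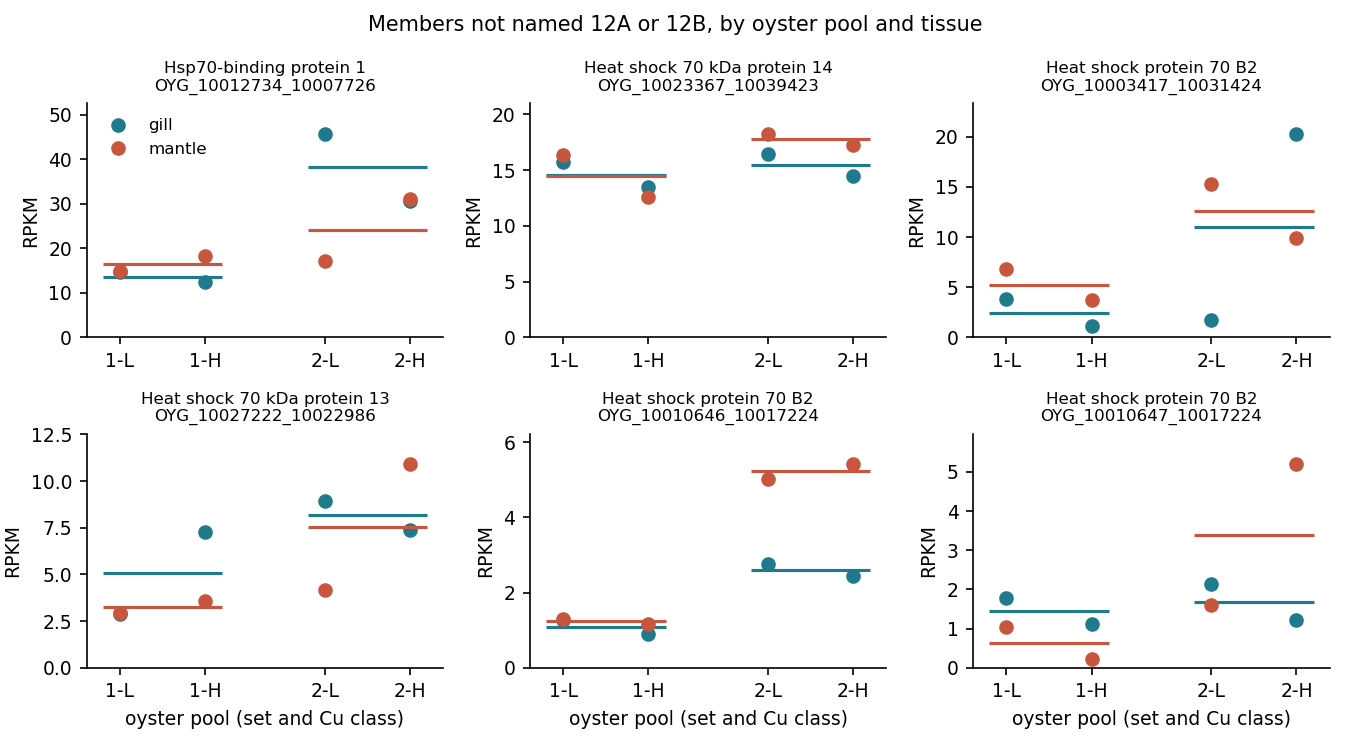
RPKM of the 6 members not named 12A or 12B in the 4 oyster pools, gill in blue and mantle in red, with horizontal bars for the mean of the 2 libraries of a tissue and set and a vertical axis from 0 in each panel. Heat shock protein 70 B2 OYG_10010646_10017224 stays between 0.901 and 1.30 RPKM in set 1 and between 2.43 and 5.41 RPKM in set 2, while heat shock 70 kDa protein 14 stays between 12.6 and 18.2 RPKM throughout.

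Among the 12A and 12B genes the set differences ran in both directions. OYG_10003806_10029693 (12A), described above for its tissue difference, was higher in set 2 in each tissue and Cu class, by a log2 difference of 1.44 (SE 0.36, limma adjusted p = 0.183). OYG_10012768_10025949 (12B) had 11 reads in all and a fitted difference of 2.16 (SE 1.45). At the low end, OYG_10022517_10034122 (12A) had a difference of -2.12 (SE 0.91, limma adjusted p = 0.388). OYG_10024937_10014075 (12B) had 4.50, 5.72, 1.02 and 1.37 RPKM in set 1 and 0.833, 0.396, 2.23 and 0 RPKM in set 2, a difference of -2.17 (SE 0.98, limma adjusted p = 0.401). OYG_10001655_10026828 (12A) had 3.78, 1.33, 1.54 and 1.38 RPKM in set 1 and 1.89, 1.80, 0 and 0 RPKM in set 2, with a difference of -2.12 (SE 0.99) that rests on 17 reads. All set 2 libraries lay below all set 1 libraries in 1 of the 116 genes, where 3.62% of all genes tested showed that pattern. This was OYG_10022585_10021822 (12A), named here after its values were seen, with 21.5, 27.1, 11.2 and 18.6 RPKM in gill and 33.8, 29.9, 19.5 and 20.7 RPKM in mantle. Within gill the median set difference of the 116 was -0.09 and within mantle it was -0.34, against 0.01 and -0.15 over all genes tested. The tissue by set interaction called 0 members, with 6 at an unadjusted p under 0.05, where 5.77% of all genes tested were.

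The third comparison asked which genes differed between pools of high and low body Cu. No member and no gene was called by limma at an adjusted p under 0.05, a background of 0%. At an unadjusted p under 0.05, 12 members were higher in the high-Cu libraries and 0 lower, all of them named 12A or 12B, where 6.86% of all genes tested were higher and 3.8% lower. The median log2 difference, high minus low, was 0.32 over the 116 genes, against 0.15 over all genes tested. Of the 116, 83 were above 0 and 28.4% below 0, where 39.8% of all genes tested were below 0. Centring each library on its median brought the median of the 116 to 0.16. The 6 other members had a median of -0.04. For 2 of the 116 genes all high-Cu libraries lay above all low-Cu libraries, against 2.12% of all genes tested. They were OYG_10004820_10005316 (12A) and OYG_10012492_10030578 (12B), named after its values were seen. The latter had 39.5, 39.3, 37.4 and 18.8 RPKM in the low-Cu libraries and 52.8, 76.2, 40.5 and 46.9 RPKM in the high-Cu libraries of pairs G1, G2, M1 and M2.

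The medians were further from 0 in the exposed set. The median log2 difference of the 116 genes was 0.06 in pair G1 and 0.14 in pair M1, where all genes tested had 0.04 and 0.03. In pair G2 it was 0.54 and in pair M2 it was 0.55, where all genes tested had 0.10 and 0.32. In G1, 62 of the 116 genes were higher with high Cu and 11 of them by at least 2-fold, where 52.6% and 9.93% of all genes tested were. In G2 it was 87 and 29, against 54.4% and 13.8%. In M1 it was 67 and 14, against 51.4% and 12.4%, and in M2 it was 86 and 39, against 60% and 29.1%. The interaction of set and Cu class, which tests this difference gene by gene, called 0 members, with 8 at an unadjusted p under 0.05, where 5.32% of all genes tested were. The M2 pair includes M2-L, the library with the low median. Over both tissues and sets the median was 0.19 without M2-L and 0.19 without G2-H.

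**Figure D5:**
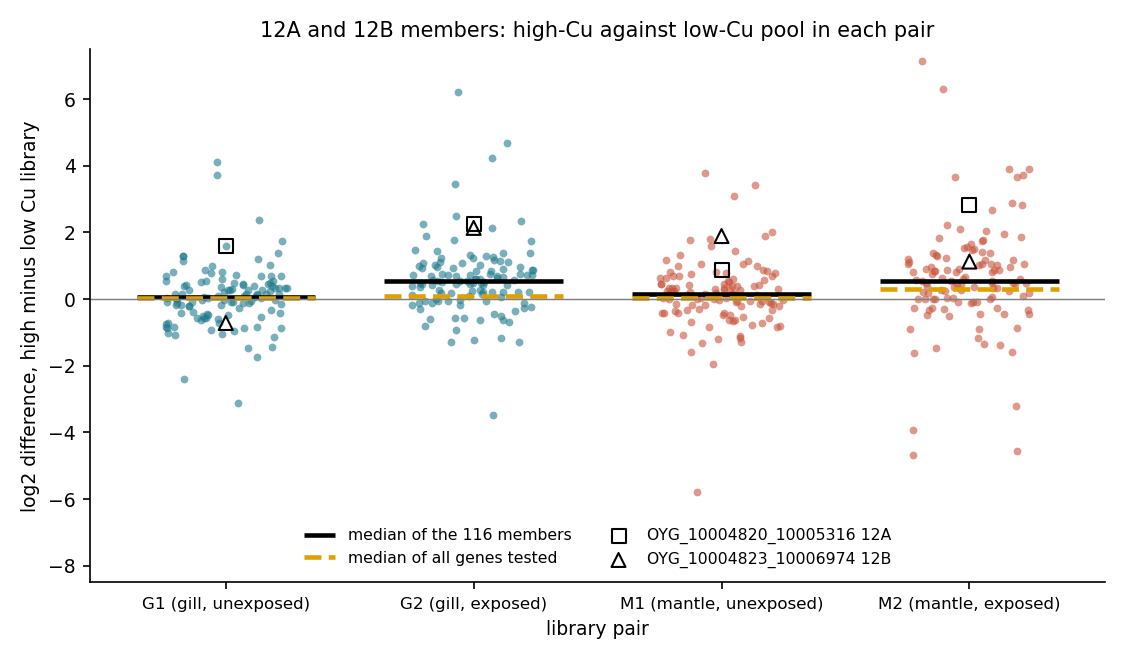
Log2 difference between the high-Cu and the low-Cu library of each pair for the 116 tested 12A and 12B genes (dots), their median (black) and the median of all genes tested (dashed). Medians of 0.54 and 0.55 in the exposed pairs G2 and M2 lie above the 0.06 and 0.14 of the unexposed pairs, and open symbols follow the 2 genes that passed in both pairs of a tissue.

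Within pairs, Fisher's exact test on the reads recovered from the RPKM values compared the libraries, not the conditions. A gene counted if it differed at least 2-fold at a false discovery rate of at most 0.001 and moved one way in the pairs of both sets of a tissue. In gill 1 member passed as higher with high Cu and 0 as lower, where 0.164% and 0.522% of all genes tested did. In mantle 1 member passed as higher and 0 as lower, where 0.939% and 0.224% did. In single pairs, 3 members were higher and 1 lower with high Cu in G1, where 0.835% and 1.04% of all genes tested were. In G2 it was 12 and 1, against 3.3% and 3.71%. In M1 it was 2 and 3, against 2.05% and 1.77%, and in M2 it was 13 and 0, against 13% and 3.68%. The 3 lower in M1 include OYG_10014932_10011156 (12B), with 15 reads in M1-L and 0 in M1-H. Its mean of 0.747 RPKM was below the filter, so it was not among the genes tested. The 3 and the 1.77% therefore do not cover the same genes and are not compared.

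The gene that passed in gill was OYG_10004820_10005316 (12A), with 7.92 (low) and 24.2 (high) RPKM in pair G1 and 8.61 and 41.7 RPKM in pair G2. In mantle it had 5.26 and 9.72 RPKM in pair M1 and 2.77 and 20.1 RPKM in pair M2. All 4 high-Cu libraries lay above all 4 low-Cu libraries. The reads behind the pairs were 23 and 80 in G1, 30 and 153 in G2, 15 and 31 in M1 and 9 and 69 in M2. Fisher's exact test gave adjusted p = 1.69e-05 in G1, 2.64e-18 in G2, 0.227 in M1 and 5.52e-11 in M2. Across the 8 libraries the log2 difference was 1.89 (SE 0.36), with limma adjusted p = 0.466.

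The gene that passed in mantle was OYG_10004823_10006974 (12B), with 11.6 (low) and 43.3 (high) RPKM in pair M1 and 13.1 and 28.8 RPKM in pair M2. In gill its pairs went opposite ways, with 71.6 and 43.6 RPKM in G1 but 15.3 and 67.8 RPKM in G2. Fisher's exact test gave adjusted p = 9.68e-05 in G1, where the gene was lower with high Cu, and 2.63e-28 in G2, where it was higher. The M2 ratio was 1.13 on the log2 scale, and with the median change of the pair subtracted this gene no longer passed in mantle.

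These 2 genes belong to a row of 6 members whose identifiers carry consecutive numbers. Positions on the genome were not used here, so the numbers are only names. The members of the row not named above were picked out after their values were seen. OYG_10004821_10007105 (12B), one of the 3 highest members in the Cu comparison, had 4.62 (low) and 11.4 (high) RPKM in pair G1, 3.08 and 35.1 RPKM in pair G2, 2.82 and 3.37 RPKM in pair M1, and 0 and 14.1 RPKM in pair M2. It followed OYG_10004820_10005316 over the 8 libraries, with a Pearson r of 0.92 on log2 values, given as a description. OYG_10004822_10015258 (12A) had 38.9 (low) and 35.4 (high) RPKM in pair G1, 27.5 and 65.1 RPKM in pair G2, 14.5 and 28.9 RPKM in pair M1, and 19.6 and 28.4 RPKM in pair M2. OYG_10004824_10006973 (12B, partial) had 26.6 and 18.2 RPKM in G1, 8.94 and 23.3 RPKM in G2, 3.24 and 6.88 RPKM in M1, and 6.04 and 6.05 RPKM in M2. OYG_10004819_10007103 (12B), the first of the row, had 19.9 and 10.2 RPKM in G1, 22.1 and 22.3 RPKM in G2, 20.3 and 15.1 RPKM in M1, and 7.41 and 15.4 RPKM in M2. With high Cu, 5 of the 6 genes were at least 2-fold higher in G2, while in G1 the pair OYG_10004820_10005316 and OYG_10004821_10007105 were higher and the other 4 lower. Over the family 69 members fell in 25 such rows with gaps of at most 5 numbers. Among the 12A and 12B genes with a mean of at least 5 RPKM, pairs within a row had a median r of 0.67 over the 8 libraries (49 pairs), and all other pairs had 0.55 (3521 pairs). Members of a row may share sequence and with it ambiguous reads, which the authors left out of the counts.

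Several genes were present in some pools and nearly absent in others. OYG_10001267_10013602 (12A) had 12.4 (low) and 21.9 (high) RPKM in pair G1, 0 and 7.27 RPKM in pair G2, 0 and 0.984 RPKM in pair M1, and 0.482 and 8.68 RPKM in pair M2. It was the highest of the members in the Cu comparison at 3.59 (SE 1.49, limma adjusted p = 0.466), with the high-Cu library above the low-Cu one in each of the 4 pairs. OYG_10001266_10035758 (12B), with the number before it, had 17 reads in all and a difference of 2.78 (SE 1.74). OYG_10002387_10035717 (12B) went the other way in gill, with 36.7 and 20.5 RPKM in pair G1 and 57.9 and 5.08 RPKM in pair G2, and 271 against 25 reads behind the last pair. In mantle it had 15.4, 11.4, 4.58 and 7.15 RPKM, and its Cu difference was -1.03 (SE 0.58, limma adjusted p = 0.503). The other 2 lowest members in the Cu comparison were OYG_10024937_10014075 (12B) with -1.18 (SE 0.98, limma adjusted p = 0.615) and OYG_10022517_10034122 (12A) with -0.97 (SE 0.91, limma adjusted p = 0.651). Without M2-L the former was -0.15 and the latter -0.22, and without M2-H they were -0.53 and 0.12.

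The ratio of the highest to the lowest library had a median of 4.05 over the 85 12A and 12B genes with a mean of at least 5 RPKM, against 3.45 over all genes at that level. It was under 2 for 8 of the 85, or 9.41%, against 13.7% of all such genes. It was at least 10, or the lowest library was at 0, for 12 of them, or 14.1%, against 16.7%. The pool with the highest level in gill was also the highest in mantle for 33 of the 85 genes, or 38.8%, against 38.4% of all genes at that level. The shares given so far lay near those of all genes. The lowest pool matched for 35 of the 85 genes, or 41.2%, against 34.0% of all genes at that level. Both the highest and the lowest pool matched for 15, or 17.6%, against 14.5%. None of these shares was tested.

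A list of 83 genes (74 tested) chosen by annotation words gave a further comparison. It held chaperones and co-chaperones that work with HSP70, and also other heat shock genes. The latter were 2 genes with heat shock factor in their name, HSP60 and HSP10, and 7 small heat shock proteins. Another 10 genes were for HSP70s of the endoplasmic reticulum and mitochondria and a relative. The names of those 10 were not covered by the rule that chose the 140 members. In the tissue comparison 2 of the 74 were called higher in mantle and 6 lower, with a median log2 difference of -0.17. Of all genes tested 5.92% and 9.77% were called, and the median was -0.21. None was called in the set or the Cu comparison, where the medians were 0.17 and 0.21, against -0.07 and 0.15 over all genes tested. The J-domain proteins had 42 tested members, of which 2 were called lower in mantle, and the HSP90 group had 5 with none called. All 7 tested genes for the HSP70s of the endoplasmic reticulum and mitochondria and their hypoxia-induced relative had a tissue difference below 0, as did 61.4% of all genes tested. Their medians were -0.54 for mantle minus gill, 0.60 for set 2 minus set 1 and 0.35 for high minus low. In the tissue comparison 2 of them were called, OYG_10028173_10021174 with -1.92 (limma adjusted p = 0.035) and OYG_10028167_10026523 with -3.46 (limma adjusted p = 0.00271). Both carry the name of the 78 kDa glucose-regulated protein, the HSP70 of the endoplasmic reticulum.

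The most abundant gene of the list was heat shock protein beta-1 (OYG_10017582_10033789), a small chaperone that keeps unfolded proteins soluble, at 1091, 1460, 1224 and 1632 RPKM in gill and 1535, 994, 1589 and 1397 RPKM in mantle. An alpha-crystallin B chain gene (OYG_10012084_10011353), another small chaperone, had 450.4, 519, 975 and 568 RPKM in gill and 690.4, 528, 1577 and 856 RPKM in mantle, with set 2 above set 1 in each tissue and Cu class by a log2 difference of 0.78 (SE 0.23, limma adjusted p = 0.236). HSP 90-alpha 1 (OYG_10017621_10033473), a chaperone of signalling proteins that works with HSP70, had 325, 327, 266 and 421 RPKM in gill and 280.0, 197, 560.0 and 416 RPKM in mantle. Each of the 3 stood above the 184 RPKM that was the highest value of any HSP70 family member in any library.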

How the data were processed

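The deposited values were RPKM per gene, 1 column for each of 8 libraries, and a dash was read as 0. The authors filtered the tags for quality, for empty reads and for tags seen once, aligned them to the genome of *C. gigas* by TopHat with at most 1 mismatch, counted unambiguous tags per gene and compared libraries with Cufflinks (versions are not given in the sources used here). Near-identical copies of a gene lose reads by such counting. The RPKM steps gave whole reads (within 0.001) for 100% of the 25181 genes with a value, and with them depth and coding length. Intervals from these reads cover counting error only.

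Genes with a mean of at least 1 RPKM (20123) were fitted as log2(RPKM + 0.1) with limma 3.58.1 (R 4.3.3) using an intensity trend, with tissue, set and Cu class as terms and 4 residual degrees of freedom. Fold changes on this scale understate those of low genes. Fisher's exact test used scipy 1.17.1 on recovered reads. The members and all lists were chosen with earlier results of these data known. Named were the 5 most abundant 12A and 12B genes, all 6 other members, the 3 highest and 3 lowest in each comparison, those past both pair criteria, the 3 with the largest library ratio, and the 3 most abundant partner genes. Pools sharing a set and Cu class may hold the same oysters in both tissues, and the pool was tried as a block in the tissue comparison only. Scripts were tested on simulated data. Alternatives were other pseudocounts, filters and scalings, voom on recovered reads, blocks, and leaving out each library. No sequence was printed, because no gene identifier matched the reference table.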

Additional observations from a re-analysis of the deposited data

Results flagged for a closer look

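Named members were looked over for opposite movement in the tissues, meaning that the high-Cu library was above the low-Cu library in both pairs of one tissue and below it in both pairs of the other. This held for 2 members. The difference between the tissues was not tested, and the share of all genes with this pattern is not given. The 2 members are therefore described only. OYG_10005917_10023915 (12B) had a mean log2 difference, high minus low, of -0.26 in gill and 0.59 in mantle. Hsp70-binding protein 1 (OYG_10012734_10007726) had -0.40 in gill and 0.58 in mantle.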

How the results depend on the processing

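Of the 15 members called lower in mantle, all that were tested kept their direction under each alternative run. The count was 18 with a pseudocount of 1, 14 with 0.01, 12 with no filter, 16 with a mean of at least 5 RPKM, 13 after median centring, 11 after quantile normalization, 14 without the trend, 13 with voom, 10 with 4 blocks, and 15 with the oyster pool as a replicate block. Leaving out 1 library gave 5 to 14 calls, with 5 without G1-L, 5 without G2-H, 5 without M2-H, 7 without M1-H and 9 without G1-H, in fits with fewer samples. With no filter, 1872 of 25181 genes with reads were called lower in mantle, beside the 12 of 140 members. For the other alternatives the share of all genes called is not given, so those counts describe the members only. No alternative called a member in the other main comparisons or interactions.

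The median of the 12A and 12B genes, mantle minus gill, was -0.71 with a pseudocount of 1, -0.59 after median centring, -0.58 with voom and -0.89 to -0.66 over the libraries left out. For set 2 minus set 1 it was -0.15 with the higher filter, -0.15 after centring, -0.15 with voom and -0.33 to -0.12 over the libraries left out. For high minus low it was 0.16 after centring, 0.14 with voom and 0.19 to 0.43 over the libraries left out. For the 6 other members the tissue median turned to 0.15 after centring, 0.32 with voom, 0.10 without G1-L, 0.26 without M1-H and 0.11 without M2-L (range -0.12 to 0.26). Their set median was 0.86 with a pseudocount of 1, 0.95 with the higher filter and 0.82 to 1.25 over the libraries left out. Their Cu median was 0.088 with the higher filter, -0.21 after centring, -0.18 with voom, 0.076 without M1-H and -0.26 to 0.076 over the libraries left out. Voom and the left-out libraries were chosen for these medians after seeing the data, and the cause of the changes was not tested.

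Within pairs, a log2 ratio over 2 left 0 members in gill and 0 in mantle. With the 2-fold criterion alone 5 were higher and 1 lower in gill, and 7 higher in mantle. Subtracting the pair's median left 0 in mantle. In single pairs, 9.93% (G1), 13.8% (G2), 12.4% (M1) and 29.1% (M2) of all genes tested were at least 2-fold higher. For these criteria the share of all genes passing in both pairs of a tissue is not given. The counts are therefore not read as a result about the members. Among named genes, the Cu difference of OYG_10022517_10034122 was 0.12 without M2-H (range -1.71 to 0.12 over the libraries left out), and the tissue difference of OYG_10014217_10038378 was -0.38 without G1-H and -0.22 without M1-L (range -0.38 to 3.07). The 18 members below 1 RPKM are limited by depth.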
